A study of Mus musculus with 28 samples.

Results

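The kidney cortex of mice that make a vitamin D receptor without activation function 2 (AF2) was compared with that of mice without a working receptor (KO), over all expressed genes. The comparison takes 8 of the 28 libraries of the series, the 4 titled Vdr AF2 kidney and the 4 titled Vdr-/- kidney. The 6 Vdr+/+ kidney libraries (WT) share in the estimate of spread and show where each mutant lies beside normal tissue. All mice were female, 8 weeks old and fed the rescue diet Inotiv TD.96348, rich in calcium, phosphate and lactose, so the WT mice carry the diet too. The genotype labels read knockout, delta AF2 and wildtype, and the table's header names the knockout line after Demay. Which part of Vdr each allele lacks, the strain background and whether mutants had WT littermates could not be taken from the labels. The design sets receptor signalling without coactivators against absent receptor signalling and asks how each affects mineral homeostasis.

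The vitamin D receptor is a nuclear receptor that pairs with the retinoid X receptor on DNA, at repeats of the hexamer AGGTCA or close variants. Binding of the hormone folds the last helix of the receptor, AF2, into a surface that recruits coactivators, and a receptor without it can still bind DNA. In the kidney the hormone is made by Cyp27b1 in the proximal tubule, is broken down by Cyp24a1, and drives calcium recovery in the distal tubule through a channel, calbindins, a pump and an exchanger.

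Promoter windows of 300 bases from RefSeq (GRCm38.p6) were searched for AGGTCA on both strands, as AGGTCA or TGACCT. Of the 45 genes called below, 30 had a window and 8 of these (26.7%) held the hexamer, beside 15.1% of the 10005 genes tested in kidney that had one, 18.1% of all 27025 genes with a window and 16.3% of all windows. A match is a description of the letters, not a binding site. The 3 windows below belong to the gene pair with the largest difference, to a gene that fell in AF2, and to the vitamin D dependent calbindin S100g. Each is written 5' to 3' on the gene's own strand, with the hexamer in capitals. The first lies at chr15:100352950-100353249 on the plus strand and is shared base for base by Methig1 and Mettl7a2. The second lies at chr19:37334495-37334794 and the third at chrX:162964550-162964849, both on the minus strand. The annotated span of Ide is 37268743 to 37337852, so its printed window lies inside the gene and not at its annotated 5' end.
Methig1 and Mettl7a2: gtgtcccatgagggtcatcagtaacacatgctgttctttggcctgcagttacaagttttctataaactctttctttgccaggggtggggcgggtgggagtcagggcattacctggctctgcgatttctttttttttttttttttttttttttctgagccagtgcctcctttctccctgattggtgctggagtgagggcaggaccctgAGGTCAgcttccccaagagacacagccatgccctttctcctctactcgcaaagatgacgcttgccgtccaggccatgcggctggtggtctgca
Ide: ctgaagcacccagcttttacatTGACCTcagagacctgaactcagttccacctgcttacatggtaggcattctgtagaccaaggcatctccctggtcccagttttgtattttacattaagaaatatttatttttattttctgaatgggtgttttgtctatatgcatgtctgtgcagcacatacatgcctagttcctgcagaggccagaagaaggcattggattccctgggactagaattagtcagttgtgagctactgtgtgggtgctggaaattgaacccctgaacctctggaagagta
S100g: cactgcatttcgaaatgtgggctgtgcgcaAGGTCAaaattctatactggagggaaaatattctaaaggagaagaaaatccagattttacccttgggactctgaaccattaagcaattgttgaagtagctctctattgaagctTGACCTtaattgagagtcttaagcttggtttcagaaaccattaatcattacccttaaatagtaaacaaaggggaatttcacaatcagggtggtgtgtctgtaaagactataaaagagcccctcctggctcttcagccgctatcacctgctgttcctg

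Vdr, the targeted gene (chromosome 15, 97854425 to 97910630, minus strand, mm10), was measured first. Its level was 22.1, 20.99, 17.1 and 7.94 CPM (counts scaled to a common library total) in KO 1 to KO 4, against 81.7, 85.0, 91.9 and 64.8 CPM in AF2 1 to AF2 4, with 177, 201 and 212 CPM as the lowest, median and highest WT value. The 3 genotypes did not overlap, and AF2 lay between KO and WT. Vdr was 4.78-fold higher in AF2 than in KO (log2 fold change 2.26 ± 0.20, SE, adjusted p 1.29e-06). These libraries read the 3' ends of transcripts, so a tag outside the altered part of the gene is counted in each genotype and says nothing of a working protein.

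Of 13502 genes tested, 45 (0.333%) differed between AF2 and KO at an adjusted p under 0.05, 27 (0.2%) higher and 18 (0.133%) lower in AF2. Only 12 (0.0889%) differed by more than 2-fold, 5 higher and 7 lower. At an unadjusted p under 0.05 there were 1553 genes (11.5%), and over all genes 6757 had a higher and 6744 a lower mean in AF2. The libraries of AF2 and KO did not overlap in 44 of the 45 genes, the exception being Acly, and in 967 of all genes (7.16%). The WT mean lay between the mutants in 28 of the 45 (62.2%, 36% of all genes tested), above both in 8 (17.8%, all genes 32%) and below both in 9 (20%, all genes 32.1%). The 45 were selected for a gap between the mutants, so their overlap and WT position are not independent of the call. Against the shared WT libraries, 5 of the 45 were called in both mutants, 24 in AF2 alone, 5 in KO alone and 11 in neither. With the deposited counts halved to reads 48 were called higher and 19 lower, and in a fit of the 8 mutant libraries alone 17 and 19. Without WT 1 there were 78 calls, without KO 2 there were 22 and without KO 4 there were 24. Over all genes 366 (2.71%) were called for AF2 against WT and 114 (0.844%) for KO against WT.

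**Figure D1:**
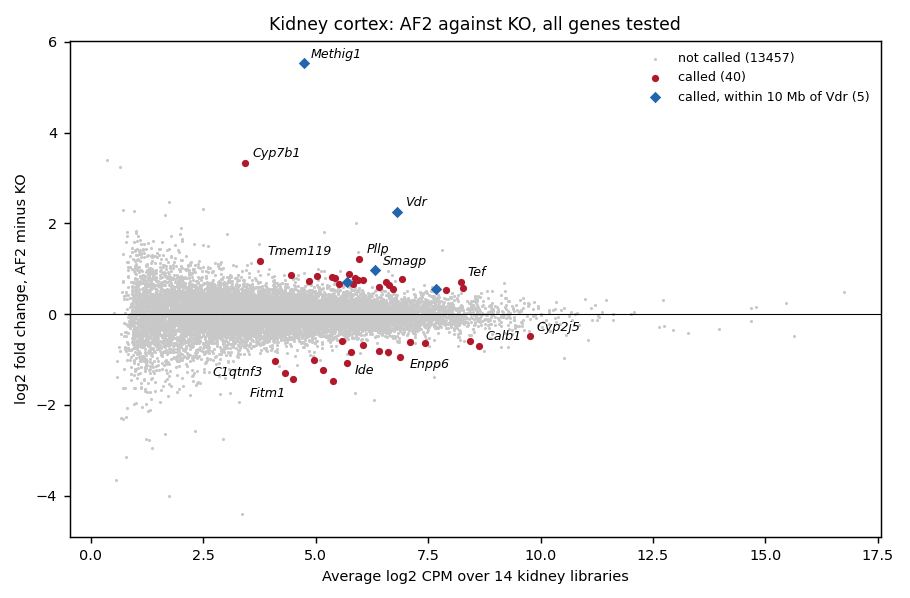
Each point is 1 of 13502 genes, with its average log2 CPM over the 14 kidney libraries on the x axis and its log2 fold change of AF2 minus KO on the y axis. Grey points did not pass, red circles and blue diamonds passed, and the diamonds lie within 10 Mb of Vdr. Among called genes Methig1 at 5.53, Cyp7b1 at 3.34 and Vdr at 2.26 stand highest, and Fitm1 at -1.42 lies among the lowest called genes.

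Library totals ran from 3927332 to 6492228 counts in KO and from 4021114 to 5524772 in AF2. Markers of cortex were present in all 14 libraries, while Ckm and Mb of muscle, Lep of fat, Cps1 of liver, Cd79a of B cells and Cyp11b1, Cyp21a1 and Hsd3b1 of the adrenal were at 0 in all of them. One library, AF2 4, stood apart from the rest of its group. The first principal component of the 8 mutant libraries held 26.1% of the variance and placed AF2 4 at -67.5 with the other 7 between 2.86 and 15.2. Without AF2 4 there were 40 calls, 28 of them among the 45, and 7 over 2-fold. Library codes in the labels put all KO libraries in 1 run of consecutive codes and all AF2 libraries in another, each with 2 WT libraries, so genotype and code run meet only through WT and otherwise cannot be told apart. With code run as a block only Methig1 passed (adjusted p 1.55e-08), Vdr and Smagp were at an adjusted p of 0.0555, and all 45 kept their sign. The labels do not say that each library of a group came from its own mouse, so p-values describe the spread between these samples, which may be technical.

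Enpp6 and Fitm1 fell in AF2 below KO although the KO mean already lay below the WT mean. Enpp6 (chromosome 8, 46986887 to 47096762) is a phosphodiesterase of choline-containing lipids. It measured 124, 92.2, 102 and 113 CPM in KO against 50.4, 64.0, 67.6 and 40.4 CPM in AF2. WT ran from 154 to 181 CPM. The genotypes formed 3 separate steps, and AF2 was 1.94-fold lower than KO (log2 fold change -0.95 ± 0.14, adjusted p 0.000293). Fitm1 (chromosome 14, 55575617 to 55576954), a membrane protein of lipid droplet formation, measured 27.8, 19.3, 16.2 and 11.3 CPM in KO against 5.04, 7.94, 7.97 and 6.56 CPM in AF2, with 27.7 to 45.2 CPM in WT. KO 1 reached the lowest WT library and no AF2 library reached any KO library (log2 fold change -1.42 ± 0.25, adjusted p 0.00467). Both genes were called in each of the 14 fits that left out 1 library. Fitm1 was not called by limma-voom (adjusted p 0.0825). Nor was it called in edgeR on the 8 mutant libraries with replicate number as a block (adjusted p 0.0900). Enpp6 passed in both (0.0022 and 0.0329).

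Another 4 genes had a WT mean above both mutants and fell in AF2. Cyp2j5, an abundant P450 of fatty acid epoxidation, measured 898, 993, 759 and 888 CPM in KO against 658, 609, 649 and 612 CPM in AF2 (log2 fold change -0.48 ± 0.10, adjusted p 0.0225), with 964 to 1071 CPM in WT. Macrod2, which removes ADP-ribose from proteins, had a mean of 72.9 CPM in KO beside 45.3 CPM in AF2 (log2 fold change -0.69 ± 0.14, adjusted p 0.0152) and 75.9 CPM in WT. The transcript 4931406C07Rik stepped down from 456 CPM in WT through 319 CPM in KO to 212 CPM in AF2 (adjusted p 0.0165 between the mutants). C1qtnf3, a secreted protein of the C1q family, had means of 21.8 and 9.06 CPM (adjusted p 0.043), with KO 4 at 35.9 CPM and the other KO libraries at 15.4 to 18.6 CPM. Without KO 4 its log2 fold change was -0.92 (adjusted p 0.201), and its call was also lost without 9 other single libraries. Cyp2j5 lost its call without KO 2, KO 4, AF2 1 or AF2 2, Macrod2 without KO 3 or AF2 1, and 4931406C07Rik without KO 2, KO 3, KO 4 or AF2 1 (adjusted p at most 0.142).

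A further group fell in AF2 while the WT mean lay between the mutants, 11 genes in all. Ide, the insulin-degrading protease, whose window is printed above, measured 75.2, 64.6, 74.1 and 65.8 CPM in KO against 33.8, 27.1, 36.9 and 34.6 CPM in AF2, with 34.1, 50.8 and 69.3 CPM as lowest, median and highest WT value. It was 2.11-fold lower in AF2 than in KO (log2 fold change -1.08 ± 0.17, adjusted p 0.000925), and WT spanned the gap between them. Slc5a8, the sodium-coupled carrier that recovers lactate from the filtrate, measured 117, 97.1, 99.4 and 104 CPM in KO against 63.0, 51.4, 70.1 and 52.8 CPM in AF2 (log2 fold change -0.82 ± 0.15, adjusted p 0.00847). All AF2 libraries but AF2 3 lay below the lowest WT library, at 68.7 CPM. Ppp2r3a, a regulatory subunit of protein phosphatase PP2A, measured 109, 150.2, 109 and 106 CPM in KO against 61.0, 64.5, 67.1 and 73.2 CPM in AF2 (log2 fold change -0.83 ± 0.13, adjusted p 0.000925), with KO 2 well above the rest of KO. A1cf, an RNA-binding cofactor of apolipoprotein B editing, had means of 44.7 CPM (KO) and 21.95 CPM (AF2, adjusted p 0.0165), and Itga6, a laminin-binding integrin, 200.2 and 129.5 CPM (adjusted p 0.0243). Ide, Slc5a8 and Ppp2r3a kept their calls without any 1 library, A1cf lost its call without KO 2, KO 4, AF2 1 or AF2 2, and Itga6 without KO 3, KO 4, AF2 1 or AF2 3. Calb1 of this group is described with the mineral genes, and Flrt1, Mib1, Rbm15, the transfer RNA mt-Tm and the pseudogene Cd63-ps complete it with log2 fold changes of -0.61, -0.60, -1.03, -0.84 and -1.23.

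The 9 genes whose WT mean lay below both mutants all rose in AF2. Sema3g, a secreted semaphorin, measured 34.5, 31.7, 46.6 and 43.9 CPM in KO against 68.1, 57.9, 68.0 and 80.9 CPM in AF2, with 20.998 to 33.6 CPM in WT (log2 fold change 0.81 ± 0.16, adjusted p 0.0162). Fabp3, a fatty acid carrier of the cytosol, measured 116, 89.3, 118 and 99.1 CPM in KO against 188, 149, 168 and 214 CPM in AF2 (log2 fold change 0.77 ± 0.15, adjusted p 0.0165). For Sema3g and Fabp3 every AF2 library lay above every KO and WT library. Cbs, which joins homocysteine and serine, rose from 51.4 to 86.3 CPM (adjusted p 0.0165), Cacnb4, a calcium channel subunit, from 24.9 to 41.6 CPM (0.0165), Pde4b, which degrades cyclic AMP, from 42.0 to 66.7 CPM (0.031), and the creatine kinase Ckb from 51.9 to 82.2 CPM (0.0461). In these 4 genes the KO and WT libraries overlapped, and every AF2 library lay above both. Acly, which makes cytosolic acetyl-CoA for lipid synthesis, measured 74.7, 83.5, 112 and 98.7 CPM in KO against 107, 157, 146 and 164 CPM in AF2 (log2 fold change 0.63 ± 0.14, adjusted p 0.0369), with AF2 1 inside the KO range. Leaving out single libraries ended the call of Sema3g (KO 1, KO 2), Fabp3 (KO 2, KO 4, AF2 1, AF2 4), Cbs (KO 1, KO 2), Cacnb4 (KO 2, KO 4), Pde4b (KO 1, KO 2, KO 3, AF2 1, AF2 4), Acly (7 libraries) and Ckb (9 libraries), with adjusted p at most 0.199.

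Cyp7b1, an oxysterol hydroxylase of steroid and bile acid metabolism, had the second largest rise. It measured 1.54, 2.06, 5.90 and 1.89 CPM in KO against 39.8, 55.6, 8.39 and 19.3 CPM in AF2, with 0.864 to 4.48 CPM in WT. All AF2 libraries lay above all others, but they spanned 8.39 to 55.6 CPM among themselves, from 20 to 119 reads. The log2 fold change was 3.34 ± 0.62 (adjusted p 0.043). Leaving out any of 9 single libraries raised the adjusted p above 0.05, most for KO 2 (0.171) and also for AF2 1 (0.0749) and AF2 4 (0.0592).

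Another 17 genes rose in AF2 with the WT mean between the mutants. Smagp, a cell adhesion glycoprotein, measured 55.6, 51.9, 58.7 and 46.5 CPM in KO, 98.8, 87.4, 105 and 125 CPM in AF2, with 62.7 to 97.9 CPM in WT (log2 fold change 0.97 ± 0.14, adjusted p 0.000293). Tef, a transcription factor of the clock's output, measured 267, 215, 244 and 155 CPM in KO, 345, 327, 413 and 363 CPM in AF2, with 270.1 to 348 CPM in WT (log2 fold change 0.72 ± 0.13, adjusted p 0.00847). Dgat2, which completes triglyceride synthesis, measured 74.7, 54.7, 63.4 and 68.8 CPM in KO, 88.2, 91.1, 115 and 134 CPM in AF2, with 96.8 to 116 CPM in WT (log2 fold change 0.71 ± 0.13, adjusted p 0.00911). In each of these 3 genes AF2 overlapped WT while all KO libraries lay below WT, and KO alone was called against WT (adjusted p 0.0119, 0.0446 and 0.00264).

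Others of the 17 differed from this order. Trip6, a LIM domain adaptor of cell adhesions, measured 53.5, 39.9, 45.7 and 47.3 CPM in KO against 79.2, 77.6, 70.5 and 95.8 CPM in AF2 (log2 fold change 0.80 ± 0.15, adjusted p 0.00847), all AF2 libraries above the highest WT value of 68.2 CPM. Pllp, a membrane protein of epithelia and myelin, measured 45.3, 49.4, 32.8 and 42.0 CPM in KO against 55.5, 104, 91.5 and 142 CPM in AF2 (log2 fold change 1.22 ± 0.23, adjusted p 0.0295). Tmem119, a membrane protein known from microglia and osteoblasts, had means of 9.05 and 20.3 CPM (log2 fold change 1.18 ± 0.27, adjusted p 0.043). Pllp lost its call without any 1 of the KO libraries, AF2 2 or AF2 3, Tmem119 without any of 9 libraries, while Smagp, Tef, Dgat2 and Trip6 kept theirs. The amino acid carrier chain Slc3a2 rose from 198 to 284 CPM (adjusted p 0.0461), the glycolytic regulator Pfkfb3 from 15.1 to 27.3 CPM (0.043), and both calls were lost without 10 single libraries.

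**Figure D2:**
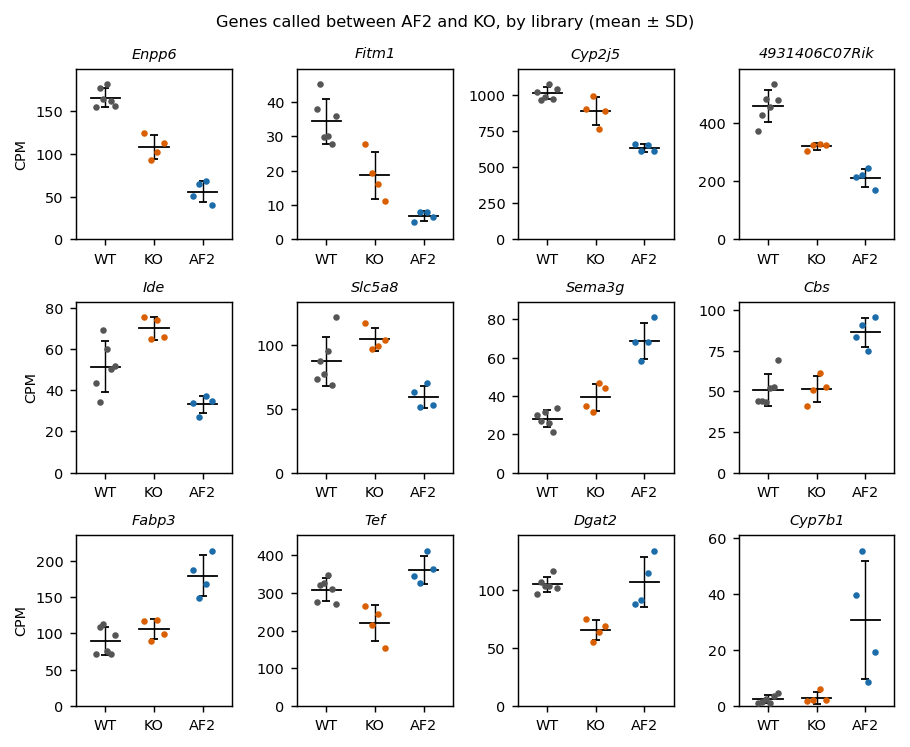
Points are single libraries in CPM (y axis, from 0) for WT, KO and AF2, and bars give the mean ± SD of each genotype for 12 called genes. Enpp6, Fitm1, Cyp2j5 and 4931406C07Rik step down in mean from WT through KO to AF2, in Ide and Slc5a8 the KO mean lies highest, in Sema3g, Cbs, Fabp3 and Cyp7b1 the AF2 libraries lie above all others, and in Tef and Dgat2 the KO libraries lie below both.

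Of the vitamin D and mineral panel, 22 of 24 genes were tested and 1 was called, Calb1, beside 0.333% of all genes tested. The median log2 fold change of the 22 was -0.14, with 6 higher and 16 lower, beside 0.000176 over all genes tested. Cldn14 and Trpv6 were too low to test, at 0 to 1 and 0 to 2 reads per library. The panel was chosen with results of these data known.

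The genes of hormone synthesis and breakdown were not called between the mutants. Cyp27b1, the enzyme that makes the active hormone (chromosome 10, 127048250 to 127053006), measured 48.4, 90.1, 155 and 166 CPM in KO against 327, 294, 248 and 21.5 CPM in AF2, with 0.733 to 3.46 CPM in WT. In AF2 the library AF2 4 lay below every KO library and the other 3 lay above, and the difference missed the threshold (log2 fold change 0.94 ± 0.62, adjusted p 0.614). Without AF2 4 it was 1.32 (adjusted p 0.21). Both mutants passed against the shared WT libraries, with log2 fold changes of 5.93 (adjusted p 0.00445) and 6.88 (0.000473). Cyp24a1, the enzyme that inactivates the hormone, gave 1 read over the 4 KO libraries and 2 over the 4 AF2 libraries beside 233 in WT, so both mutants lay under the limit of 3 reads per group (0.293 CPM for KO, 0.322 CPM for AF2), and no difference between them was detectable at this depth.

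Among the proteins of distal calcium transport, Calb1 (chromosome 4, 15881264 to 15908064), the larger cytosolic calbindin, fell in AF2. It measured 489, 399, 433 and 685 CPM in KO against 328, 318, 307 and 287 CPM in AF2, with 314 to 413 CPM in WT. The KO libraries lay above the AF2 libraries without overlap (log2 fold change -0.69 ± 0.13, adjusted p 0.0106), and without KO 4 the call was lost (-0.49, adjusted p 0.0977). S100g, the small calbindin whose window is printed above, measured 129, 93.0, 79.1 and 112 CPM in KO against 50.4, 56.5, 52.0 and 76.5 CPM in AF2, against 492 to 1321 CPM in WT. These groups did not overlap either, but S100g missed the threshold (log2 fold change -0.80 ± 0.31, adjusted p 0.351), whereas fitted on the 8 mutant libraries alone it had an adjusted p of 0.0459. Slc8a1, the basolateral sodium-calcium exchanger, measured 387, 363, 315 and 445 CPM in KO against 266, 277, 229.5 and 154 CPM in AF2 without overlap (log2 fold change -0.71 ± 0.17, adjusted p 0.0768), and DESeq2 called it (adjusted p 0.0157). The apical channel Trpv5 (8.19 and 6.29 CPM, adjusted p 0.764) and the pump Atp2b1 (166 and 145 CPM, adjusted p 0.537) overlapped between the mutants.

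**Figure D3:**
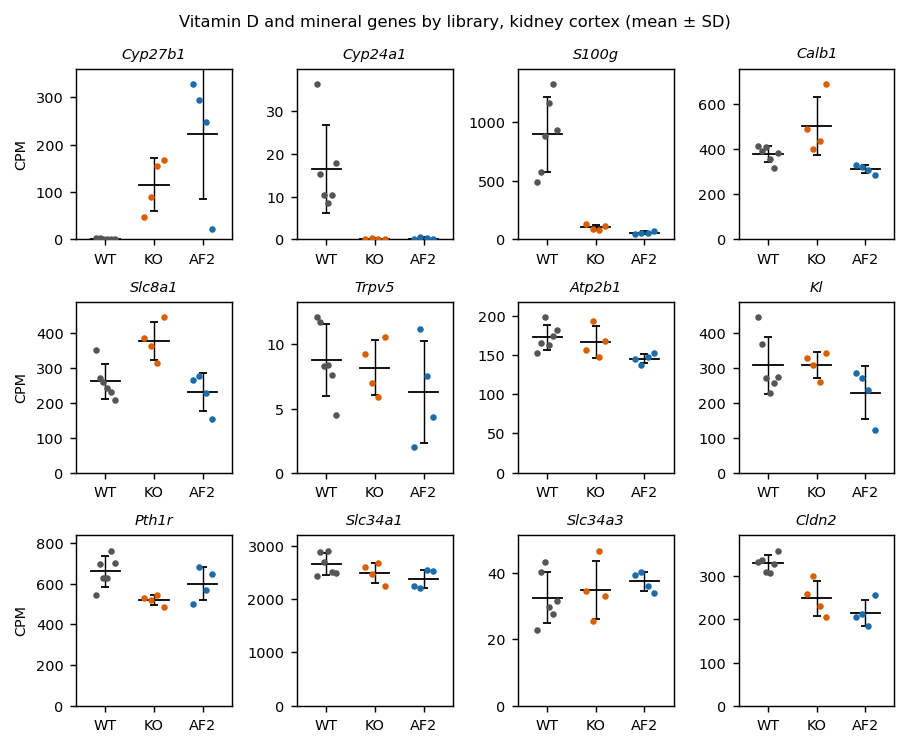
Points are single libraries in CPM (y axis, from 0) for 12 genes of the mineral panel, with the mean ± SD of each genotype. Cyp27b1 is above 20 CPM in every mutant library and under 4 CPM in WT, AF2 4 is its lowest mutant library, and S100g, Calb1 and Slc8a1 lie lower in AF2 than in KO without overlap.

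The other members of the panel overlapped between the mutants. Kl, the coreceptor of FGF23, had means of 309 ± 37.1 CPM in KO against 229 ± 74.9 CPM in AF2 (SD, n = 4 each, adjusted p 0.569), with AF2 4 at 121 CPM. The parathyroid hormone receptor Pth1r had 519 and 599 CPM (adjusted p 0.507), and the calcium-sensing receptor Casr an adjusted p of 0.822. Of the phosphate carriers, Slc34a1 had 2490.2 and 2378 CPM (adjusted p 0.867) and Slc34a3 had 34.9 and 37.4 CPM (adjusted p 0.906). The claudin pores and seals Cldn2, Cldn16 and Cldn19 had log2 fold changes of -0.21, -0.06 and 0.08, and Lrp2 and Cubn, the receptors that take up filtered vitamin D with its carrier, -0.25 and -0.04. Rxra, the receptor's partner on DNA, had a log2 fold change of -0.10 (adjusted p 0.863), and of 12 tested coregulators and retinoid X receptors 0 were called, with a median of -0.11 and 2 lower at an unadjusted p under 0.05, Ep300 (-0.32) and Ncor1 (-0.26).

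Lists of renal pathways, chosen with earlier results of these data known, were described by their counts beside those over all genes tested (0.333% called, 50% with a higher mean in AF2). The list of fatty acid oxidation and peroxisome genes had a lower mean in AF2 in 25 of 29 (median log2 fold change -0.23). Its only call was Fitm1, a protein of lipid droplet formation and not of oxidation itself. In all, 7 members were lower at an unadjusted p under 0.05, a level that 5.63% of all genes passed as lower and 5.87% as higher. Acot12, an acyl-CoA thioesterase, had means of 45.3 and 29.4 CPM in KO and AF2 (adjusted p 0.0814). Xenobiotic enzymes had a lower mean in 20 of 24 (median -0.28), with Cyp2j5 lower and Cyp7b1 higher among the calls. The sulfotransferase Sult1d1 measured 688, 899, 708 and 672 CPM in KO against 479, 453, 528 and 345 CPM in AF2 without overlap (adjusted p 0.0602). Organic anion and cation transporters had a lower mean in 15 of 20 (median -0.20) and 0 calls. Genes known to depend on sex hormones in kidney had a median of -0.31 over 12 genes, with Cyp7b1 called higher.

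Of 20 solute carriers of the proximal tubule, Slc5a8 was called lower and Slc3a2 higher (median -0.12, 15 with a lower mean). Slc13a1, the sulfate carrier, had means of 164 and 75.1 CPM in KO and AF2 (adjusted p 0.151), beside 342 CPM in WT. The bicarbonate carrier Slc4a4 had 1716 and 1254 CPM without overlap (adjusted p 0.0967). Among 17 genes of magnesium and calcium handling in the thick limb and distal tubule Calb1 alone was called (median -0.06), and the magnesium channel Trpm6 had 35.1 and 21.3 CPM without overlap (adjusted p 0.0983). Of 9 genes of the renin system 3 had a higher and 6 a lower mean (median -0.21). Ren1, which encodes renin, measured 125, 138, 154 and 270.4 CPM in KO against 338, 358, 409 and 723 CPM in AF2. Every AF2 library lay above every KO library, but Ren1 missed the threshold (log2 fold change 1.41, adjusted p 0.386). Phosphate carriers (9), parathyroid hormone and FGF23 signalling (17), vitamin D metabolism and uptake (11), ammoniagenesis (14) and oxidative phosphorylation (32) had 0 calls and medians of -0.07, -0.12, 0.04, -0.12 and -0.04, with 0, 3, 0, 3 and 3 members at an unadjusted p under 0.05.

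Some lists leaned higher in AF2. Of 14 iron and heme genes 11 had a higher mean (median 0.30), and Slc11a2, the iron importer near Vdr, was called. Of 15 antigen presentation genes 12 had a higher mean (median 0.26), with 0 called and 0 at an unadjusted p under 0.05. Of 19 clock genes Tef was called, 6 were higher and 2 lower at an unadjusted p under 0.05, and the median was 0.19. Dbp, a relative of Tef, measured 95.8, 28.4, 23.3 and 16.3 CPM in KO against 136, 97.2, 123 and 52.8 CPM in AF2, overlapping through KO 1 (log2 fold change 1.35, adjusted p 0.34). The hour at which tissue was taken is not given in the labels. Car3, a carbonic anhydrase, measured 22.7, 51.0, 32.8 and 37.8 CPM in KO against 111, 115, 109.5 and 249 CPM in AF2. The mutants did not overlap, though Car3 missed the threshold (log2 fold change 2.02 ± 0.46, adjusted p 0.108), and its list of 16 acid-base genes had 0 calls. Synthesis of fatty acids and triglycerides held 2 calls in 16 genes, Acly and Dgat2, both higher, with 8 members higher and 8 lower in mean. Insulin and peptide degradation held only the call of Ide in 16 genes, and amino acid and one-carbon metabolism only that of Cbs in 32.

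**Figure D4:**
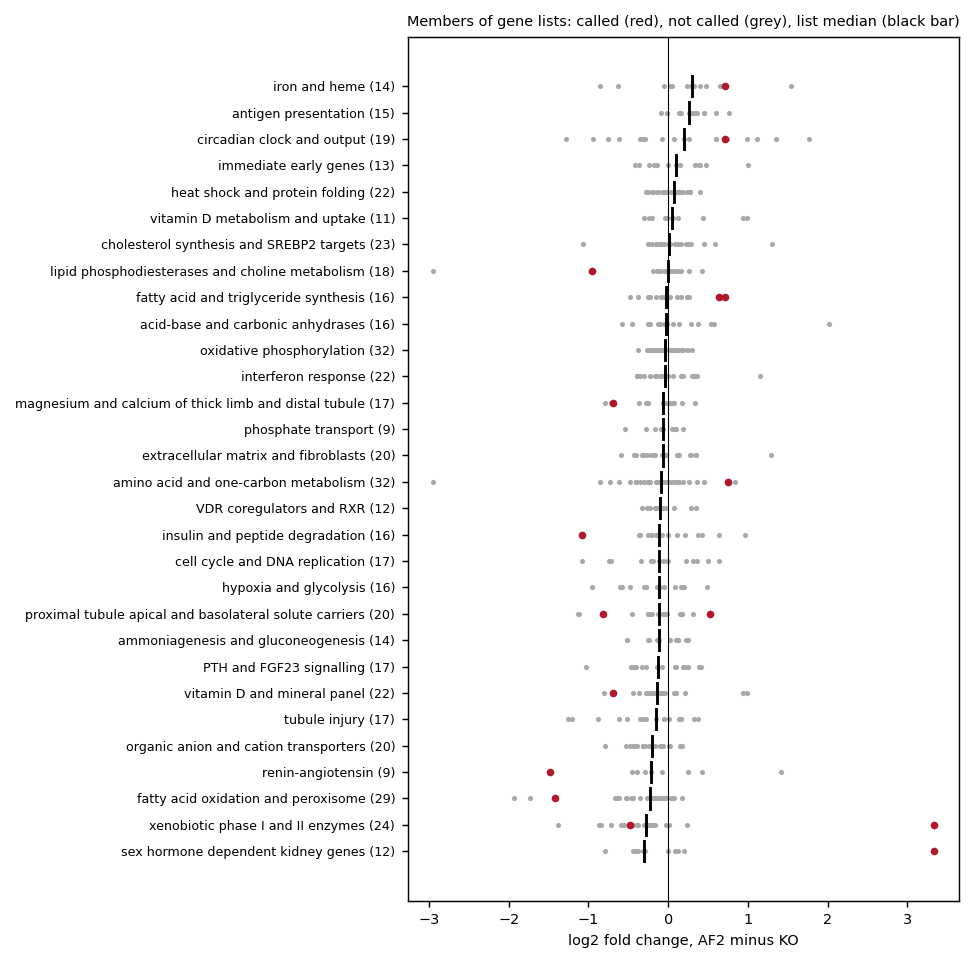
Each row is 1 of 30 gene lists, each grey point a tested member and each black bar the list's median, with the log2 fold change of AF2 minus KO on the x axis. Called members are red. Sex hormone dependent genes have the lowest median at -0.31 and iron and heme the highest at 0.30, and no list holds more than 2 calls.

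Summed levels of cell type markers differed between the mutants for some types. In bulk tissue, fewer cells of a type and less RNA per cell cannot be told apart. The 10 markers of proximal tubule S1 and S2 summed to 10242 to 11285 CPM in KO against 8999 to 9924 CPM in AF2, lower without overlap, with 9 of 10 members lower in mean and 0 called. WT ran from 9946 to 11443 CPM, with KO inside that range and AF2 below it. The 8 markers of the S3 segment summed to 1301 to 1586 CPM in KO against 1643 to 2191 CPM in AF2, higher without overlap, with 5 members higher and 3 lower in mean. WT ran from 1582 to 1973 CPM. Only the highest KO library reached that range, and AF2 lay inside it except AF2 4, at 2191 CPM. The abundant Aqp1 (548 and 705 CPM, adjusted p 0.288) and Acy3 (443 and 566 CPM, adjusted p 0.246) made up much of the sum. For Aqp1 the AF2 libraries held 636, 575, 650 and, in AF2 4, 959 CPM, against 569, 500, 617 and 506 CPM in KO. Cyp7b1 is itself one of the S3 markers, and without it the sums were 1299 to 1580 and 1603 to 2172 CPM. Podocyte markers (8) summed to 382 to 405 CPM in KO against 454 to 566 CPM in AF2, AF2 4 being the highest. WT ran from 327 to 405 CPM, with KO inside that range and AF2 above it. The podocyte genes Synpo (43.9 and 65.9 CPM, adjusted p 0.0747) and Podxl (173 and 210 CPM, adjusted p 0.36) lay higher in AF2 without overlap. Distal convoluted tubule markers (8), all lower in mean, summed to 2581 to 3049 CPM in KO against 2184 to 2428 CPM in AF2, and without the called Calb1 to 2165 to 2364 and 1866 to 2142 CPM. The WT sums of these markers ran from 2088 to 2509 CPM, so AF2 lay inside the WT range and KO above it. These sums move with Calb1 and Slc8a1 and with the proximal lists above, and their part in those results was not tested. Adrenal cortex markers summed to 2.47 to 5.29 CPM in KO against 6.55 to 12.4 CPM in AF2 and 1.81 to 8.40 CPM in WT, with 3 of 6 at 0 in all libraries. Akr1b7 alone makes up most of that sum, with means of 2.66 CPM in KO against 7.92 CPM in AF2 (adjusted p 0.163), while Star had 1.09 and 1.45 CPM. Sums for thick limb, principal, intercalated, endothelial, immune, fat, muscle, blood, liver and papilla markers overlapped between the mutants.

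Called genes were more frequent on chromosome 15, which carries Vdr, than over all genes. There 8 of 537 genes tested were called (1.49%), and the other autosomes ran from 0% to 0.898%. This difference in frequency was not tested. Within 5 Mb of Vdr 5 of 111 genes were called (4.5%), within 10 Mb 5 of 156 (3.21%) and within 20 Mb 7 of 288 (2.43%), all of them higher in AF2. The 5 within 5 Mb were Vdr itself, Lima1, Methig1, Slc11a2 and Smagp, at 1.92, 2.5, 2.53 and 2.77 Mb from Vdr. Lima1, an actin-binding protein, measured 180.2, 169, 149.9 and 166 CPM in KO against 244, 218, 236 and 284 CPM in AF2 (log2 fold change 0.56 ± 0.12, adjusted p 0.0171). Slc11a2 measured 48.4, 28.4, 36.0 and 39.3 CPM in KO against 55.5, 62.1, 59.6 and 69.9 CPM in AF2 (log2 fold change 0.71 ± 0.16, adjusted p 0.0343). Tef and the GTP-binding protein Gtpbp1 lay on the other side of Vdr, at -16.05 and -18.16 Mb. Gtpbp1 measured 22.1, 20.6, 24.2 and 21.9 CPM in KO against 31.8, 44.9, 33.2 and 49.2 CPM in AF2 (adjusted p 0.0165). Lima1 lost its call without KO 3, Gtpbp1 without KO 2, KO 4 or AF2 4, and Slc11a2 without any of 7 single libraries. The labels give no strain background, so the effect of an allele and that of the chromosome stretch inherited with it cannot be told apart for these genes.

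Methig1, a methyltransferase-like gene (chromosome 15, 100353149 to 100384436, plus strand), had the largest difference of all genes. It measured 2.06, 1.23, 0.590 and 0.756 CPM in KO against 56.5, 44.4, 65.5 and 36.8 CPM in AF2, with 17.7 to 33.7 CPM in WT. KO held 11 reads over its 4 libraries and AF2 464, and every AF2 library lay above every WT library. AF2 was 46.2-fold above KO (log2 fold change 5.53 ± 0.31, adjusted p 3.88e-13). Mettl7a2 (chromosome 15, 100353200 to 100361840, plus strand) overlaps it and shares 508 exonic bases, 33.8% of Methig1 and 28.2% of Mettl7a2, besides the window printed above. It ran the other way, at 165, 151, 221 and 148 CPM in KO against 60.5, 47.2, 55.8 and 22.95 CPM in AF2, with 26.3 to 79.5 CPM in WT (log2 fold change -1.89 ± 0.38, adjusted p 0.0768). The sum of both genes was 149 to 221 CPM in KO, 59.7 to 121 CPM in AF2 and 49.9 to 97.2 CPM in WT. The split of reads between overlapping genes depends on the counting, so the level of each gene alone is uncertain.

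**Figure D5:**
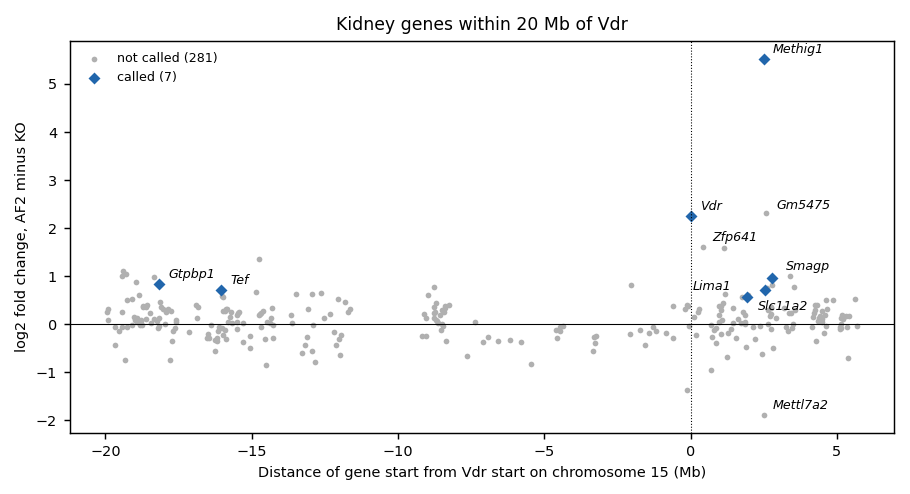
Each point is a tested gene on chromosome 15 within 20 Mb of Vdr, with its distance from Vdr in Mb on the x axis and its log2 fold change of AF2 minus KO on the y axis. The 7 called genes, marked apart from the 281 others, all lie above 0, and Methig1 at 5.53 stands highest.

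The same contrast was available in the duodenum, from 4 KO and 4 AF2 libraries of that tissue, and the difference between tissues was tested over 28 libraries. It was called for 4 of 14944 genes (0.0268%), with 1194 at an unadjusted p under 0.05. Of the 44 kidney calls tested in both tissues, 28 had the same sign in the duodenum. The share with the same sign over all genes was not counted, so this number has no background. Of the 44, 1 differed between tissues by this test. That gene was Cyp7b1, at 2.05, 2.53, 5.55 and 3.19 CPM in duodenal KO against 0.494, 1.01, 0.866 and 1.49 CPM in duodenal AF2. It was lower in duodenal AF2 where the kidney was higher (difference of log2 fold changes 5.12 ± 0.89, adjusted p 0.0176). The duodenal AF2 levels lay near the counting floor, so the fall there rests on few reads. In alternative settings the call of this difference was kept in 14 and lost in 7. Gchfr, a regulator of tetrahydrobiopterin synthesis, measured 3.58, 3.04, 3.84 and 2.28 CPM in duodenal KO against 8.90, 10.5, 8.66 and 7.43 CPM in duodenal AF2 (difference -1.99 ± 0.39, adjusted p 0.0417). In kidney it had 47, 47, 73 and 48 reads in KO against 39, 21, 35 and 41 in AF2. The call of the Gchfr difference was kept in 5 alternative settings and lost in 16. Wscd1 had 0 reads in the duodenal AF2 libraries, so its fitted difference of 6.50 (adjusted p 0.0176) depends on the prior count and is no bound. Its call was kept in 11 alternative settings and lost in 10. Ide was lower in duodenal AF2 too, at 72.7, 69.4, 49.9 and 63.9 CPM in KO against 34.6, 29.7, 32.9 and 27.7 CPM in AF2 (log2 fold change -1.01 ± 0.22). Leaving out KO 1 or KO 2 of the kidney, or KO 3, AF2 2 or AF2 3 of the duodenum, left 0 genes called for the difference, with 1078 to 1221 at an unadjusted p under 0.05, and limma-voom called 0 with 1101 at that level. Smagp had a difference of 0.79 between the tissues, which did not pass (adjusted p 0.278).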

How the data were processed

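RNA of 14 kidney cortex and 14 duodenum libraries was extracted with TRIzol and read with the QuantSeq kit, per the labels' protocols. The deposited values are raw counts per gene symbol, per the file headers, made against mm10, per the submitters' processing notes, which also name limma 3.34.9. Neither aligner nor counter is given in these sources, so treatment of strand and overlapping genes is unknown. Every deposited count is even. A read is taken here as 2 counts, and the authors' counts were tested as deposited, with halved counts as an alternative.

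Genes passing edgeR's (4.0.16, R 4.3.3) filterByExpr by group (13502 of 30227) were scaled by TMM and fitted on 14 kidney libraries with robust quasi-likelihood. Adjusted p-values are Benjamini-Hochberg values of that two-sided test over all genes tested, and errors of fold changes are SE. CPM use TMM library sizes. A fit of all 28 libraries (14944 genes) tested the difference between tissues. DESeq2 1.42.0, limma-voom (3.58.1), RLE scaling, no filter, the 8 mutant libraries alone, replicate and library-code blocks and leaving out each kidney library were alternatives. For the difference between tissues, the mutant libraries of both tissues and WT 4 of the duodenum were left out in turn. The fit was tested on simulated data. Genes named by rule were Vdr, the mineral panel, the 12 largest called changes each way of average log2 CPM 1 or more and no overlap between groups, called list members, the tissue differences and called genes within 10 Mb of Vdr. Some genes that meet this rule are not reported here. Other genes were chosen after their values were seen. The comparison, panel and lists were chosen with earlier results of these data known. The limit for 0 reads is 3 reads, for counting error only. No 2 libraries of a group held identical counts, and the closest pair differed by 1.96 times sampling noise (chi-square per degree of freedom). Positions come from GENCODE release 21 for mouse (GRCm38), which matched 13369 of the genes tested.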

Additional observations from a re-analysis of the deposited data

Results flagged for a closer look

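Of 108 groups of 4 libraries examined (the KO and AF2 levels of the named genes), 4 held a library far from the other 3, and chance gives about 1 in 20. C1qtnf3 stood at 35.9 CPM in KO 4, Cyp7b1 at 5.90 CPM in KO 3 and Ppp2r3a at 150.2 CPM in KO 2. Cyp24a1 stood at 0.412 CPM in KO 2, which is its single read in KO. Without KO 3 the log2 fold change of Cyp7b1 was 4.06, and it remained called.

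For 3 genes described here the interaction test of the main fit called a difference between kidney and duodenum in AF2 against KO. The kidney minus duodenum difference in log2 fold change was 5.12 for Cyp7b1, 6.50 for Wscd1 and -1.99 for Gchfr. In alternative settings the call was kept in 14, 11 and 5, in that order, and lost in 7, 10 and 16. Wscd1 had 0 reads in duodenal AF2, so its value depends on the prior count. Cyp7b1 lay near the counting floor in duodenal AF2.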

How the results depend on the processing

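All 45 genes called between AF2 and KO kept their sign in all 22 alternative settings, 12 were called in every fit that left out 1 library and 1, Methig1, in every setting. RLE scaling gave 43 calls (42 of them shared) and limma-voom 42 (36 shared). DESeq2 called 150 genes (84 higher, 66 lower, 39 over 2-fold) and edgeR without the filter 193 (105 higher, 88 lower, 40 over 2-fold), each holding all 45. Halved counts gave 48 higher, and the 8 mutant libraries alone 17 higher. The code-run block gave 1 call, 1 over 2-fold, 1 higher and 0 lower, with 735 genes at an unadjusted p under 0.05. Leaving out 1 library gave 22 to 78 calls, 12 to 47 higher, 9 to 31 lower and 7 to 17 over 2-fold. The difference between tissues gave 1 call with halved counts, 0 with limma-voom and 0 to 6 without 1 library. The cause of these shifts was not tested.

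The labels do not say that replicate numbers pair the libraries. Same-numbered KO and AF2 libraries had correlations of deviations between -0.034 and 0.024, and different-numbered ones between -0.018 and 0.030. Correlations over all genes cannot exclude a shared litter or day. In the 8 mutant libraries alone 36 genes were called without the replicate block and 25, 11 of them higher, with it. The replicate block within tissue gave 6 calls for the difference between tissues.

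Under the code-run block small differences turned in sign, to 0.13 for Cubn, -0.00126 for Fgfr1, -0.016 for Pth1r, 0.098 for Slc34a1, 0.063 for Slc9a3r1 and 0.082 for Trpv5. Without 1 library Slc34a3 ranged from -0.019 to 0.29, Cldn16 from -0.16 to 0.067, Cubn from -0.18 to 0.18, Rxra from -0.20 to 0.011 and Slc20a2 from -0.52 to 0.070. Medians of the 30 lists moved by no more than their spread in 622 cases and further in 38. Depth limits Cyp24a1, Cldn14 and Trpv6, each near 0 reads in the mutants.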
